A study of Mus musculus with 6 samples.

Results

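The guanylate-binding protein genes (Gbp genes) encode a family of large GTPases, and 11 of the 16538 genes listed for inguinal white adipose tissue (iWAT) belong to it. The members were every listed gene whose symbol begins with Gbp followed by a number, and Gbp11 was contrasted with its 10 paralogs because its values were already known to differ. That contrast was chosen by the normalized counts of the members in adipocyte-specific Nrg4 knockout (AKO) and control iWAT, so the difference of each member between genotypes is given as a description with no test.

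The study asked whether neuregulin 4 (NRG4), a growth factor secreted by adipocytes, is needed for the appearance of beige fat in the cold. RNA-Seq was performed on iWAT of 3 control samples and 3 AKO samples, each pooled from 2 mice. Control mice carried the floxed Nrg4 alleles without Cre (fl/fl, labelled wt), whereas AKO mice carried the floxed alleles together with Adiponectin-Cre, which is active in adipocytes and leaves Nrg4 intact in the other cells of the tissue. Both groups lived at 8°C, and the labels give 10 days of this cold, whereas the study's text gives a longer period. Sex and age are not among the labels, and no sample from warm-housed mice was analysed here, so every value describes the cold-exposed state. Values are normalized read counts, that is, reads per gene divided by a factor that equalizes the samples. Log2 differences are AKO minus control on log2(normalized count + 1), with their standard error (SE).

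Guanylate-binding proteins are cytoplasmic GTPases of the dynamin superfamily whose transcription rises strongly in cells exposed to interferon-gamma. They assemble on pathogen-containing vacuoles and bacterial surfaces, where they promote membrane lysis and inflammasome activation, and some members are anchored to membranes by a C-terminal lipid group. In the mouse the genes lie in a pair of clusters, and in adipose tissue they can be expressed by immune cells, endothelial cells and adipocytes alike.

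In the GENCODE M21 annotation of GRCm38, 5 members lie on the plus strand of chromosome 3 (Gbp5, Gbp7, Gbp3, Gbp2b and Gbp2, chr3:142493978-142638008). The other 6 members lie on the minus strand of chromosome 5 (Gbp8, Gbp9, Gbp4, Gbp10, Gbp6 and Gbp11, chr5:105014150-105346472). Gbp11 (ENSMUSG00000092021, chr5:105323042-105346472, 11 exons) sits at the end of its cluster. It was the one member not annotated as protein coding. GENCODE classes it as a polymorphic pseudogene, a gene that is intact in some strains and broken in the reference, and RefSeq classes it as a transcribed pseudogene. In the reference genome its reading frame of 619 codons is interrupted by a TAG stop at codon 443, in exon 8 (chr5:105326480-105326482). None of the coding sequences read for the other members held an in-frame stop before their end. The 51 bases around that codon are given for Gbp11 and for the aligned positions of its 5 neighbours on chromosome 5, all on the minus strand of GRCm38, with the codon in capitals, because they show the sequence feature that sets Gbp11 apart in the annotation.
Gbp11 (chr5:105326456-105326506): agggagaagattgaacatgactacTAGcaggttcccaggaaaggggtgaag
Gbp6 (chr5:105275753-105275803): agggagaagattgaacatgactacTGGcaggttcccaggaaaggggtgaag
Gbp10 (chr5:105219953-105220003): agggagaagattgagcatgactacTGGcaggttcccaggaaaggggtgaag
Gbp4 (chr5:105120909-105120959): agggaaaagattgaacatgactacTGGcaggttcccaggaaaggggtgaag
Gbp9 (chr5:105082704-105082754): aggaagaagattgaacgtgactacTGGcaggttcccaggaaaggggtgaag
Gbp8 (chr5:105017679-105017729): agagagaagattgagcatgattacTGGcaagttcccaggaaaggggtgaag

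All 5 neighbours carry the tryptophan codon TGG at this place. Over these 51 bases Gbp6 differed from Gbp11 at 1 base, Gbp10 and Gbp4 at 2, Gbp9 at 3 and Gbp8 at 5. Over the aligned coding sequence, identity with Gbp11 was 93.8% for Gbp8, 92.9% for Gbp4, 90.8% for Gbp6, 90.7% for Gbp10 and 90.0% for Gbp9. The chromosome 3 members were more distant, from 64.2% for Gbp2 to 74.0% for Gbp7. The mice's own Gbp11 sequence was not read here, so whether they carried the stop is not known.

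Close paralogs can exchange reads in alignment, and this bears unequally on the members. For Gbp11, 94.9% of the 100-base windows along its exons were unique within the annotated transcripts, and 80.8% of the 50-base windows were. No base of its exons is shared with another annotated gene. Gbp6 and Gbp10, 98.4% identical to each other in coding sequence, were the least resolvable members, with 35.5% and 26.5% unique 100-base windows. The read-through gene Gm43302 also covers 29.0% of the exon bases of Gbp6 and 46.3% of those of Gbp10. The counts of Gbp6 and Gbp10 are therefore uncertain, and for the other 8 members 90.0% to 100% of the 100-base windows were unique.

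RefSeq promoter windows (GRCm38.p6, from 250 bases before to 50 bases after the start site) were matched for 5 members, all on chromosome 3. No entry was matched for Gbp4, Gbp6, Gbp8, Gbp9, Gbp10 and Gbp11. The interferon-stimulated response element (ISRE), a binding motif of IRF proteins, was searched as TTTC, any 2 bases and TTTC on both strands, 10 bases in all, and 3.44% of the 32851 windows in the table held it. It was present in at least 1 window of each of the 5 members. The matches are shown in capitals within their flanks, plus strand of GRCm38.p6, since these letters are what the interferon relay described further on is known to bind.
Gbp2 (chr3:142620589-142620628): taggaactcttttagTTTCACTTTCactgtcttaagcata
Gbp2b (chr3:142594695-142594734): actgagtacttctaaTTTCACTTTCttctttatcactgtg
Gbp3 (chr3:142559984-142560029): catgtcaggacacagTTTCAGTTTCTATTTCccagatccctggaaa
Gbp5 (chr3:142496754-142496793): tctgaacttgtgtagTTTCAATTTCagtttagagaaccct
Gbp7 (chr3:142530268-142530307): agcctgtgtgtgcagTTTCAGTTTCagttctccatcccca

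The match ended 50 bases before the start site in Gbp2, 128 in Gbp2b, 30 in Gbp3, 156 in Gbp5 and 44 in Gbp7. GENCODE places the start of Gbp2 at base 142620602 and that of Gbp3 at base 142560026, each inside its printed stretch. It places the start of Gbp5 at base 142493978, upstream of the printed stretch, which thus lies within the GENCODE gene. Gbp3 has a pair of RefSeq start sites, of which 1 window held 2 overlapping matches and the other held none. A match of letters is not evidence of binding in this tissue.

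The samples held between 17570335 and 18373707 reads on listed genes, and all 11 members passed the filter of a mean normalized count of at least 10. The targeted gene, Nrg4, had normalized counts of 3128, 3102 and 3092 in the controls and 2577, 2627 and 2691 in AKO. Every AKO sample was below every control (log2 difference -0.24, SE 0.05, limma adjusted p = 0.298; two-sided exact permutation p = 0.1, the smallest that 3 against 3 samples allow). The count covers the whole gene and does not separate the deleted exons from the rest, so it is a weak check of the genotype. By qPCR the study reported that Nrg4 mRNA was almost gone from AKO iWAT and brown fat. Why the measures differ was not tested. Across the 13855 genes tested, limma called 2 genes at an adjusted p under 0.05 (0.0144%). On whole reads recovered from the normalized counts, edgeR called 3 of 13869 genes (0.0216%) and DESeq2 called 149 of 14923 genes (0.998%). At an unadjusted p under 0.05, limma passed 1261 genes (9.1%).

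Per kilobase of exon, Gbp2 stood highest in the family and Gbp10 lowest. The places of Gbp6 and Gbp10 in this order carry the uncertainty of their counts given above. Gbp2 reached 721 ± 117 normalized counts per kb (SD, n = 6 samples of both genotypes), 3 members lay between 86.2 and 202 (Gbp7, Gbp3 and Gbp4), 5 between 34.2 and 74.0 (Gbp11, Gbp9, Gbp2b, Gbp5 and Gbp6), and Gbp8 and Gbp10 were at 9.65 ± 5.50 and 8.52 ± 2.83. The ranges of neighbours in this order did not overlap between Gbp2 and Gbp7, between Gbp3 and Gbp4, between Gbp5 and Gbp6, or between Gbp6 and Gbp8. Neighbours whose ranges overlapped were Gbp7 with Gbp3, Gbp4 with Gbp11, Gbp11 with Gbp9, Gbp9 with Gbp2b, Gbp2b with Gbp5, and Gbp8 with Gbp10. Gbp11 ranked 4 in the controls, at 103 ± 16.8 per kb, and 8 in AKO, at 45.4 ± 5.94 per kb (SD, n = 3 each). When levels were divided by the longest transcript in place of all exon bases, 5 of the 11 ranks were kept.

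**Figure D1:**
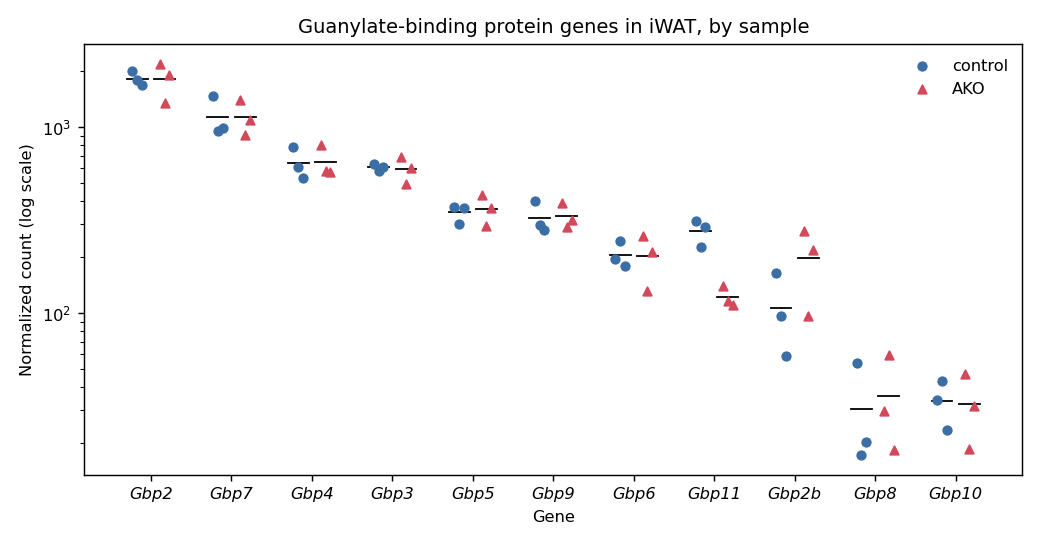
Normalized count of each Gbp gene (log scale) in the 3 control samples (circles) and the 3 AKO samples (triangles), with a bar at each group mean; genes are ordered by mean count and counts are not divided by length. The groups overlap for the 10 paralogs, and for Gbp11 the AKO samples (109.9 to 140.2) lie below the controls (226 to 312).

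Gbp11 was lower in AKO iWAT in every sample. Its normalized count was 312, 226 and 292 in control samples 1 to 3 and 140.2, 116 and 109.9 in AKO samples 1 to 3. The lowest control stood above the highest AKO sample. The means were 277 ± 45.1 and 122 ± 16.0 (SD, n = 3 each), so the AKO level was 0.441 of the control level, a log2 difference of -1.17 (SE 0.15). The SD within each group was larger than the SD that counting reads alone would give, 16.9 in the controls and 10.9 in AKO. Among the tested genes, 23 lay further below 0 on this scale, and groups that did not overlap with AKO lower occurred for 8.31% of all tested genes. Because Gbp11 was singled out for this difference, nothing is read from these shares.

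The chromosome 3 paralogs include the most abundant members. Gbp2, which is recruited to vacuoles of intracellular parasites, had normalized counts of 2004, 1783 and 1677 in the controls and 2193, 1339 and 1893 in AKO. The control range lay inside the AKO range, and the means were 1821 ± 167 and 1809 ± 433 (SD, n = 3 each), with a log2 difference of -0.04 (SE 0.17). AKO 2 was the lowest and AKO 1 the highest of all 6 samples. Gbp7, linked to the assembly of the phagocyte oxidase, was at 1471, 949.6 and 991 in the controls and 1391, 909 and 1095 in AKO. The groups overlapped over most of their ranges, and the log2 difference was -0.00011 (SE 0.20). Gbp3, most similar in coding sequence to Gbp7 (78.6% identity), was at 632, 583 and 606 in the controls and 693, 495 and 604 in AKO. Its control SD of 24.7 was no larger than the counting SD of 25.003, so the spread of the controls may be understated, and the log2 difference was -0.04 (SE 0.12).

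Gbp5, which promotes assembly of the NLRP3 inflammasome, was at 372, 300.0 and 369 in the controls and 429, 293 and 369 in AKO. Its control range also lay inside the AKO range, with a log2 difference of 0.06 (SE 0.15). Gbp2b was the most variable of the chromosome 3 members, with 164, 96.8 and 59.0 in the controls and 278, 96.7 and 219 in AKO. A pair of AKO samples exceeded every control and the remaining one lay next to control 2, so the groups overlapped. The means of Gbp2b were 106 ± 53.0 and 198 ± 92.3 (SD, n = 3 each), and its log2 difference of 0.88 had an SE of 0.45, the highest difference among the paralogs.

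The chromosome 5 paralogs are the closest in sequence to Gbp11. Gbp4, the second closest in coding sequence, was at 783, 609 and 532 in the controls and 799.9, 581 and 572 in AKO. Sample 1 was the highest of each group, and the log2 difference was 0.02 (SE 0.17). Gbp9 was at 398, 298 and 281 in the controls and 391, 290.0 and 318 in AKO. All AKO values of Gbp9 fell inside the control range, with a log2 difference of 0.04 (SE 0.16).

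Gbp6, counted with the uncertainty given above, was at 195, 243 and 179 in the controls and 260.2, 132 and 214 in AKO, a log2 difference of -0.07 (SE 0.24). Its near-copy Gbp10 was at 34.1, 43.0 and 23.4 in the controls and 47.1, 18.5 and 31.8 in AKO, a log2 difference of -0.10 (SE 0.37). In both genes the control range lay inside the AKO range, with AKO 1 the highest and AKO 2 the lowest sample. Gbp8, the closest to Gbp11 in coding sequence, was at 54.2, 17.2 and 20.3 in the controls and 29.8, 59.6 and 18.3 in AKO. One sample of each group stood far above the rest of its group, and the log2 difference of 0.25 had an SE of 0.53.

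Across the 10 paralogs, 5 differences lay above 0 and 5 below, with a median of 0.01 against 0.01 over all genes tested. The 8 paralogs other than Gbp2b and Gbp8 ranged from -0.10 to 0.06. The groups overlapped for all 10, whereas they did not overlap, in either direction, for 14.5% of all tested genes. Leaving out 1 sample at a time turned the sign for every paralog except Gbp2b, whose log2 difference ranged from 0.52 without control 3 to 1.32 without AKO 2. Gbp8 ranged from -0.19 without AKO 2 to 0.74 without control 1. The summed normalized count of the paralogs was 5255 ± 744 in the controls and 5354 ± 1149 in AKO (SD, n = 3 each). The SEs of 0.12 to 0.53 leave room for moderate changes of single paralogs that 3 samples per group could not show.

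**Figure D2:**
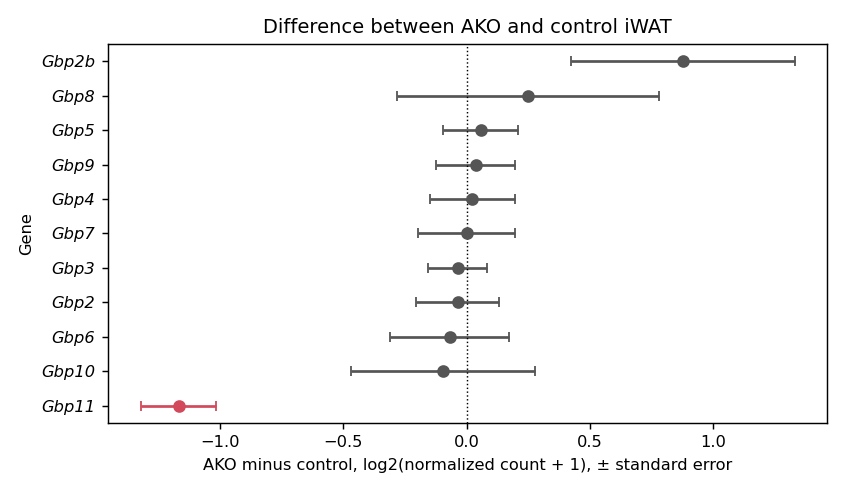
Log2 difference of each Gbp gene between AKO and control iWAT on log2(normalized count + 1), with bars of 1 SE from the limma fit over 3 samples per group. Gbp11 lies at -1.17, and the 10 paralogs lie between -0.10 and 0.88.

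Setting Gbp11 against its paralogs within each sample removes what the family shares. Log2(normalized count + 1) of Gbp11 minus the median of the 10 paralogs was -0.30, -0.40 and -0.14 in control samples 1 to 3 and -1.54, -1.32 and -1.63 in AKO samples 1 to 3. The group means were -0.282 ± 0.132 and -1.497 ± 0.161 (SD, n = 3 each). As a share of all reads on the 11 members, Gbp11 took 4.86% (95% Wilson interval 4.36 to 5.42), 4.39% (3.84 to 5.005) and 5.80% (5.18 to 6.49) in the controls. In AKO it took 2.11% (1.80 to 2.47), 2.68% (2.25 to 3.20) and 2.02% (1.68 to 2.42). These intervals cover counting error only and rest on 210 to 311 Gbp11 reads per control sample and 114 to 146 per AKO sample. The mean shares were 5.02 ± 0.72% and 2.27 ± 0.36% (SD, n = 3 each). Gbp11 was singled out for this difference, so the values of this paragraph are a description and not a test.

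**Figure D3:**
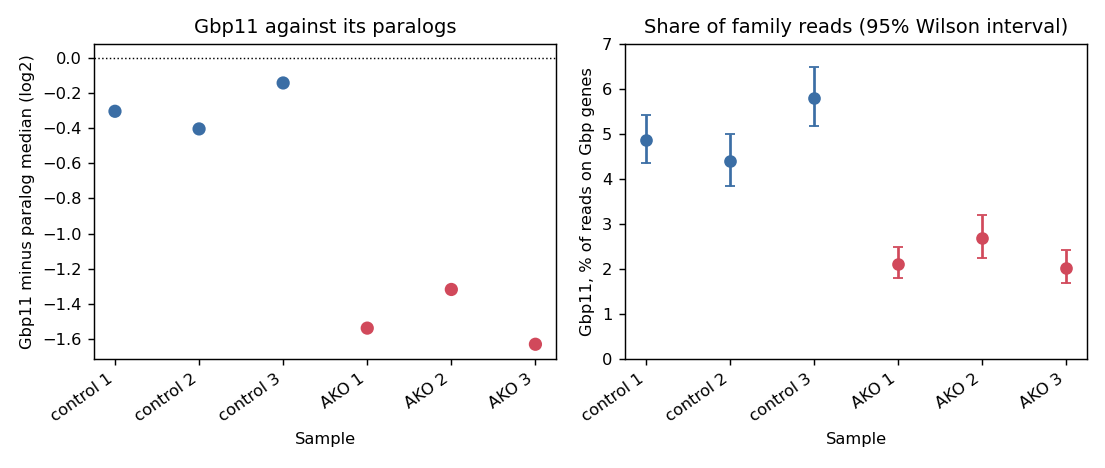
Left, log2(normalized count + 1) of Gbp11 minus the median of its 10 paralogs in each sample; right, Gbp11 reads as a percent of reads on all 11 Gbp genes, with 95% Wilson intervals (counting error only). Controls lie between 4.39% and 5.80% and AKO samples between 2.02% and 2.68%.

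Within each genotype most paralogs varied together from sample to sample. AKO 1 was the highest AKO sample for 9 of the 10 paralogs and AKO 2 the lowest for 8, and control 1 was the highest control for 8. Deviations from the group mean over the 6 samples had a median Pearson r of 0.79 over the 36 pairs of the 9 paralogs other than Gbp8 (range 0.47 to 0.98). The closest pairs included Gbp7 with Gbp9, at 0.98, genes on different chromosomes, and Gbp6 with Gbp10, at 0.96, which share sequence. Gbp8 followed the others little (median r -0.15, range -0.59 to 0.43). Gbp11 fell between, with a median r of 0.52 with its 10 paralogs (range 0.01 to 0.75). These correlations describe 6 samples, of which removing the group means leaves 4 free to vary, and all genes of a sample share its library.

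**Figure D4:**
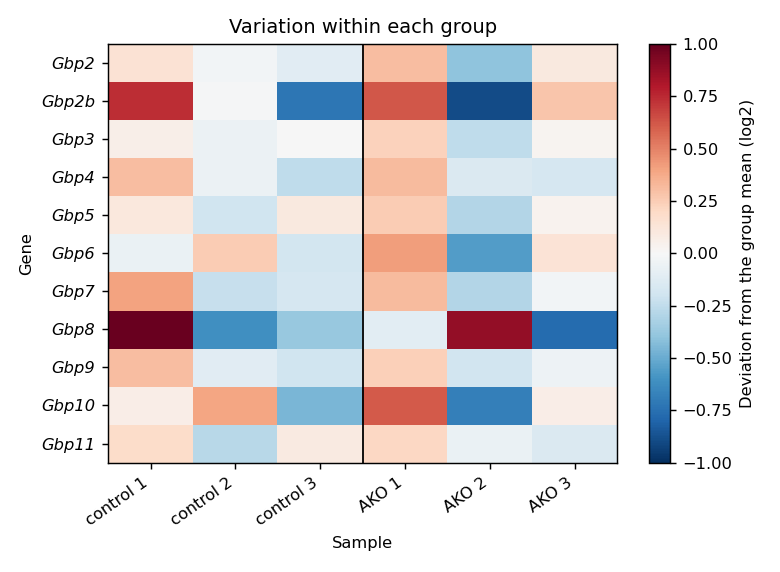
Deviation of each Gbp gene (rows) from its group mean in each sample (columns, the line separates control from AKO), on log2(normalized count + 1). AKO 1 is above its group mean for most paralogs and AKO 2 below it, whereas Gbp8 shows the opposite in those samples.

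The genes most like Gbp11 were ranked over all 6 samples, so the ranking rests in large part on the difference between genotypes for which Gbp11 was chosen. Among 13844 tested genes outside the family, the highest Pearson r with Gbp11 over the 6 samples belonged to 2500002B13Rik (0.993), Elavl3 (0.977), Poc5 (0.974), Smarcc2 (0.974) and Nxnl1 (0.972). All 5 were lower in AKO on average, from a log2 difference of -0.12 for Smarcc2 to -1.06 for Elavl3. Within genotypes the r of 2500002B13Rik was 0.939, and that of the other 4 lay between 0.632 and 0.690. The median of the paralogs was most like Ifih1, a cytoplasmic sensor of viral RNA that is itself induced by interferon (r = 0.995), followed by Wrn (0.990), Sox5 (0.981), Ap5b1 (0.980) and Angpt1 (0.979). With 6 samples and so many genes, high values arise readily, and they are given as a description.

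None of the genes flanking the clusters passed the test. On chromosome 5, Lrrc8b, a volume-regulated channel subunit 69303 bases beyond Gbp11, had a log2 difference of 0.41 (SE 0.21, limma adjusted p = 0.608). Abcg3, 31432 bases from the other end, had 0.11 (SE 0.18, adjusted p = 0.902). Both pointed upward while Gbp11 was lower, and their groups overlapped. On chromosome 3, Pdlim5 had 0.14 (SE 0.07, adjusted p = 0.601) and Gtf2b had -0.07 (SE 0.11, adjusted p = 0.893), also with overlapping groups.

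The interferon pathway around the family was read from 13 lists of 165 genes, of which 147 passed the filter. By limma 0 of the 147 passed an adjusted p under 0.05 (background 0.0144%), as by edgeR, whereas DESeq2 called 1 (background 0.998%). At an unadjusted p under 0.05, 8 were higher and 3 lower, a share below the 9.1% of all genes tested. Their median log2 difference was 0.05, against 0.01 over all genes tested, with 92 above 0 and 55 below, against 7193 above and 6662 below over all genes. The groups did not overlap for 23 of the 147, close to the 14.5% of all genes.

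Among the ligands, Ifng, the interferon-gamma transcript, was close to the detection floor, at 2.01, 3.23 and 1.02 normalized counts in the controls and 4.802, 1.95 and 2.89 in AKO. It was below the filter and not tested. Il18, which drives interferon-gamma production by lymphocytes, was the one ligand tested, at 85.2 ± 16.4 in the controls and 99.5 ± 8.40 in AKO (SD, n = 3 each; log2 difference 0.24, limma adjusted p = 0.730). Of the 6 receptor genes none passed. The ligand-binding chain Ifngr1 was at 2990.04 ± 104 and 2896 ± 286 (log2 difference -0.05), and the signalling chain Ifngr2 at 766 ± 21.7 and 852 ± 15.3 (0.15, adjusted p = 0.522). Ifnar2, of the type I receptor, had a log2 difference of -0.16 (adjusted p = 0.564).

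Downstream of the receptors, 0 of 16 genes of the JAK-STAT and IRF relay passed. The receptor kinase Jak1 had a log2 difference of 0.12 (limma adjusted p = 0.682). The repressor Irf2 had -0.26 (SE 0.08, adjusted p = 0.414) and Irf5, a factor of myeloid cells, 0.43 (SE 0.12, adjusted p = 0.387). Of the 8 feedback inhibitors none passed, with Ptpn11, the SHP2 phosphatase, at -0.07 and Irf2bp2 at 0.03. Ptpn6, the SHP1 phosphatase of blood cells, had 0.51 (adjusted p = 0.601) and Ptpn2 -0.20 (adjusted p = 0.661).

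None of the related GTPases passed either. Of 12 immunity-related GTPases, which act beside the Gbp proteins at pathogen vacuoles, 0 passed and 9 lay above 0. Irgm2 was at 1566 ± 143 and 1578 ± 368 (log2 difference -0.01), and Iigp1 at 1225 ± 149 and 1388 ± 746 (0.05). F830016B08Rik (0.79, limma adjusted p = 0.522) and Gm5431 (0.64, adjusted p = 0.569) had the smallest unadjusted p-values there, at mean counts of 10.3 to 40.2. Of 5 other interferon-induced GTPases and large dynamins none passed. The atlastins Atl3 and Atl2, membrane-fusing relatives of the Gbp proteins that are not known as interferon targets, had log2 differences of 0.02 and 0.07, Atl1 had -0.36 (adjusted p = 0.696) and the antiviral Mx2 -0.30 (adjusted p = 0.772).

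Among 16 genes of antigen presentation, 0 passed by limma, and B2m and H2-K1, of the class I complex, had log2 differences of 0.04 and -0.01. Ctss, a lysosomal protease of antigen-presenting cells, was at 661 ± 64.9 and 876 ± 27.3 (SD, n = 3 each; 0.41, SE 0.08, limma adjusted p = 0.263) and was the pathway gene called by DESeq2 (adjusted p = 0.0301), with an edgeR adjusted p of 0.238. Psme2, of the proteasome activator, had -0.15 (adjusted p = 0.661). Among 16 chemokines and effectors none passed. Wars and Parp14, both interferon-inducible enzymes, had -0.04 and 0.08, Fcgr1, the high-affinity IgG receptor of macrophages, 0.71 (SE 0.21, adjusted p = 0.448) and Cd40 0.54 (adjusted p = 0.550). Of 24 genes of the type I response, 20 lay above 0 and 0 passed. Trim25 and Ddx58, of the RIG-I sensor pathway, had -0.11 and 0.07, Oas3 0.83 (SE 0.23, adjusted p = 0.374) and Zbp1, a nucleic acid sensor, 0.44 (adjusted p = 0.508).

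The genes that act with the Gbp proteins also gave no call by limma. Of 13 autophagy genes that guide Gbp proteins to vacuoles, 10 lay below 0. The cargo receptor Sqstm1 had 0.02, Gabarap -0.05, Atg12 -0.12 (limma adjusted p = 0.576) and Tecpr1 -0.31 (adjusted p = 0.350). Of 12 inflammasome and pyroptosis genes, 10 lay above 0, with Casp8 at -0.12, the membrane-rupture protein Ninj1 at 0.28 (adjusted p = 0.651) and Naip2 at 0.45 (adjusted p = 0.568). Among 10 isoprenylation genes, which lipidate several members, Fnta and Icmt had -0.01 and -0.02, Fdps 0.28 (adjusted p = 0.689) and Rce1 0.14 (adjusted p = 0.726). Among 8 genes of guanine nucleotide supply, Gda had 0.20 (adjusted p = 0.550), Samhd1 0.17 (adjusted p = 0.506) and Gmps -0.18 (adjusted p = 0.540).

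**Figure D5:**
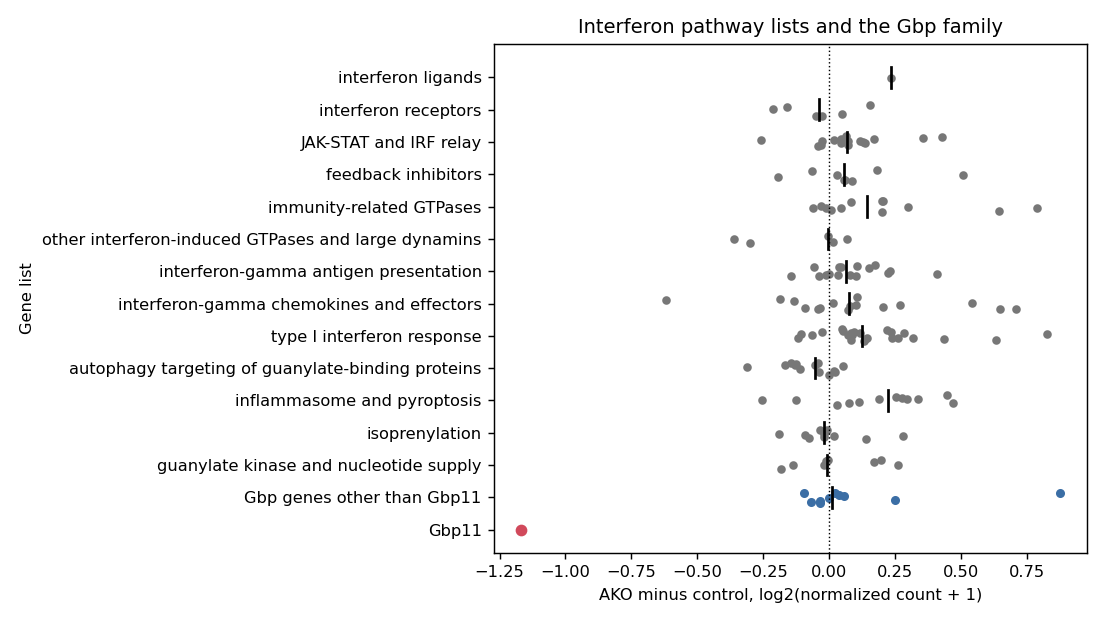
Log2 difference between AKO and control iWAT on log2(normalized count + 1) for each tested gene (points) of the 13 pathway lists, the 10 Gbp paralogs and Gbp11; the vertical bar is the median of each list. The lists scatter around 0 with a median of 0.05 over all 147 pathway genes, and Gbp11 lies at -1.17.

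Bulk iWAT mixes several cell types, and fewer cells of a type cannot be told apart from less RNA per cell. The defining adipocyte markers of the labelled tissue were abundant, with a summed normalized count over 10 markers of 553951 to 583292 in the controls and 499090 to 523223 in AKO. Fabp4 had a log2 difference of -0.17 (limma adjusted p = 0.747) and Acsl1 -0.13 (adjusted p = 0.763). All 7 beige adipocyte markers lay below 0, with sums of 27631 to 39747 in the controls and 11372 to 14847 in AKO. By limma and by edgeR 1 of the 7 passed, Elovl3 (limma adjusted p = 0.0350), which is named after its values were seen and was not called without control 1, without control 3 or without any one of the AKO samples. DESeq2 called 6 of the 7, all but Ppargc1a. Ucp1, the uncoupling protein, had -1.75 (adjusted p = 0.0703) and Cidea -0.82 (adjusted p = 0.227). Thus the beige markers lay on the same side of 0 as Gbp11, and their part in its difference was not tested.

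No marker of the other cell types of the tissue passed by limma, and DESeq2 called 1, the progenitor marker Dpp4 (background 0.998%). All 12 macrophage markers lay above 0 (sums of 12800 to 18144 in the controls and 15714 to 21527 in AKO), with Lyz2 at a log2 difference of 0.35 (limma adjusted p = 0.550) and C1qa at 0.39 (adjusted p = 0.539). The dendritic cell markers summed to 374 to 499 and 391 to 643, with 6 of 7 above 0, and Itgax and Zbtb46 at 0.26 and 0.18. T and NK cell markers summed to 393 to 889 and 416 to 1390.3, with 11 of 13 above 0, Cd4 at -0.14 and Cd2 at 0.16. All 7 B cell markers lay above 0, at sums of 176 to 1160.1 and 205 to 1409.8, with Cd22 at 0.16 and Jchain at 0.27. Of 10 endothelial markers 9 lay below 0 (23200 to 25436 and 21284 to 24338), with Cdh5 at -0.13 and Pecam1 at -0.04. All 7 progenitor markers lay above 0 (36494 to 53264 and 44728 to 60179), with Dcn at 0.30 and Col1a1 at 0.19. The groups did not overlap for 3 of the 7, against 14.5% of all tested genes. Dpp4, named after its values were seen, had 0.57 (DESeq2 adjusted p = 0.00844, limma adjusted p = 0.315).

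Tissue from neighbouring structures was present in unequal amounts. Skeletal muscle markers summed to 167 to 27268 in the controls and 20129 to 118180.0 in AKO, with 10 of 12 above 0 and Acta1 and Myh4 at log2 differences of 3.43 and 4.55. Mammary epithelial markers summed to 10.8 to 1666 and 140.2 to 2163, with all 7 above 0, 5 of them at 0 in at least 1 sample, and Csn3 and Ltf at 1.47 and 1.22. The ranges of the groups overlapped for each of these cell types except adipocytes and beige adipocytes. Their part in the values of the Gbp genes was not tested.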

How the data were processed

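RNA was isolated from iWAT of cold-exposed control and AKO mice (3 samples each, 2 mice pooled per sample), and the genotype label set the groups. The authors aligned reads with STAR to GRCm38 (mm10), obtained per-gene read counts with featureCounts and divided these by DESeq2 size factors. The authors deposited this signal per gene and sample, a normalized read count without division by length. Log2 fold changes, p-values and adjusted p-values of the authors stand in the same deposited table and were not used. Whether counting used strand, and the read length, are not given in the sources used here. No column of sample values was unused (0).

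The members and gene lists were chosen with earlier results of these data known. Genes with a mean of at least 10 (13855 of 16538) were tested with limma 3.58.1 (R 4.3.3) on log2(value + 1) with a variance trend, and p-values were adjusted by Benjamini-Hochberg at 0.05. Fold changes on this scale understate those of low genes. Dividing each value by that of 1 read gave whole reads for 100% of values (within 0.01), on which edgeR 4.0.16 and DESeq2 1.42.0 were run as alternatives. Depth was 17570335 to 18373707 reads on listed genes, and shares carry 95% Wilson intervals. Replicates of a group differed beyond counting noise (chi-square per degree of freedom 9.86 to 20.1), and each was kept as 1 sample. Scripts were tested on simulated data. P-values set each difference against the spread between pooled samples, so the spread between single mice was not measured.

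Named were all members, the 2 most abundant tested genes of each list, the 2 with the smallest p in each pathway list, Nrg4, the 5 genes most alike to Gbp11 and to the paralog median, and the nearest tested coding gene on each side of each cluster. Ifng and Dpp4 were named in addition, after their values were seen. The values of 1 gene that this rule names are not reported here. Annotation, exon lengths and coding sequences came from GENCODE M21 (GRCm38), which matched 15894 of the listed symbols. The sequence of Gbp5 was read from a transcript marked for nonsense-mediated decay. Alternatives were other pseudocounts, filters, scaling, tools, a replicate block and leaving out each sample.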

Additional observations from a re-analysis of the deposited data

How the results depend on the processing

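The log2 difference of Gbp11 ranged from -1.31 to -1.07 when each sample was left out in turn, that of Gbp11 minus the paralog median from -1.29 to -1.05, that of Nrg4 from -0.26 to -0.22, and the paralog median from -0.14 to 0.16, on both sides of 0. The count of genes called by limma was 2; it was 6 with at least 10 normalized counts required in every sample, 149 by DESeq2 and between 0 and 3 when samples were left out (0 without control 1, control 3 or any of the AKO samples). The count of pathway genes called was 0, 1 by DESeq2 and 0 in every fit with a sample left out. With the longest transcript as length, 5 of 11 ranks in the level order were kept. Same-numbered samples did not deviate together (correlations of 0.14, -0.35 and 0.24 for numbers 1 to 3), so the numbers are not treated as a pairing; with the replicate number as a block Gbp11 was at -1.17 and 2 genes were called. Gbp11 rested on 114 to 311 reads per sample, and Gbp8 and Gbp10, at under 60 normalized counts in every sample, carry the largest counting error relative to their level.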

Other observations

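Within genotypes, Gbp11 ran opposite to several beige adipocyte markers, although both were lower in AKO. Over the 6 samples the Pearson r of levels between Gbp11 and the 7 beige markers ranged from 0.55 (Ppargc1a) to 0.88 (Elovl3), which reflects that both differ between the groups. After the group means were removed, r was -0.999 for Cox7a1, a mitochondrial subunit of heart, skeletal muscle and brown fat, and -0.98 for Cidea, a lipid droplet protein. It was -0.81 for Elovl3, -0.72 for Ucp1, -0.70 for Cox8b, -0.10 for Dio2 and 0.44 for Ppargc1a. This relation was looked at after the values were seen, rests on 6 samples that share a library for both genes, and is given as a description. Skeletal muscle markers summed to 167 to 27268 in the controls and 20129 to 118180 in AKO, and their part in this relation was not tested.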
